A study of Mus musculus with 6 samples.

Results

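The BCL2 family genes described here are 10 genes that encode the core proteins deciding whether a cell keeps its mitochondria intact: Bcl2, Bcl2l1, Mcl1, Bax, Bak1, Bcl2l11, Bbc3, Pmaip1, Bid and Bmf. They were taken by gene name from a table of 52636 mouse gene identifiers, and all 10 were found and passed the filter on low counts. RNA was sequenced from endothelial cells grown out of mouse brain, given 4-hydroxytamoxifen (4-OHT) in every culture to induce deletion, and sorted as living cells (DAPI negative) without CD45 and with CD31 and VE-cadherin. The 3 control libraries came from cells labelled Wild Type Control, and the 3 knockout libraries from cells labelled as double knockout for Erg and Fli1, which are ETS-family transcription factors of endothelium. The labels used here name no strain, age or Cre line, and do not say whether the control cells carried Cre or whether libraries came from separate animals, and the p-values below therefore speak only of the variation seen among these libraries, which may be technical. Because DAPI-positive cells were removed, the transcripts are those of cells that were alive at sorting.

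BCL2 family proteins control the permeability of the outer mitochondrial membrane. The anti-apoptotic guardians (BCL2, BCL-XL from Bcl2l1, and MCL1) bind and hold the effectors BAX and BAK, which otherwise form pores that release cytochrome c and start caspase activation. BH3-only proteins (BIM from Bcl2l11, PUMA from Bbc3, NOXA from Pmaip1, BID and BMF) respond to stress, to loss of growth factors or to detachment, and act by occupying the guardians or by engaging the effectors directly. In endothelium BIM is known for its part in the death of cells deprived of survival signals and in vessel regression. Much of the control of these proteins is exerted after transcription, which counts of transcripts do not measure.

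The sequence before the transcript start is shown for the 5 members called in the comparison below, Bcl2l11, Mcl1 and Bcl2 as genes whose transcripts fell and Bcl2l1 and Bmf as genes whose transcripts rose, each at the start nearest to the annotated gene start. RefSeq promoter sequences (GRCm38.p6) were held for 9 of the 10 members, Pmaip1 being the other, with 16 transcript starts in all. The 250 bases before each start were searched on both strands for 2 ETS-type motifs, CCGGAAG and CAGGAAG, and for the forkhead motif GTAAACA. The motifs are searched as exact letters and no matches overlap in the windows shown, where matches are in capitals and all other bases are in lower case, 5′ to 3′ in the direction of the gene.
Bcl2l11, chr2:128125788-128126037, plus strand: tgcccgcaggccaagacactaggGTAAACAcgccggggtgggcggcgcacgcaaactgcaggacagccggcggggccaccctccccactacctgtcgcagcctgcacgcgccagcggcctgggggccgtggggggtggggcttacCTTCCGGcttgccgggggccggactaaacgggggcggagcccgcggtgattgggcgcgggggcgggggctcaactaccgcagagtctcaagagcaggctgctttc
Mcl1, chr3:95658471-95658720, plus strand: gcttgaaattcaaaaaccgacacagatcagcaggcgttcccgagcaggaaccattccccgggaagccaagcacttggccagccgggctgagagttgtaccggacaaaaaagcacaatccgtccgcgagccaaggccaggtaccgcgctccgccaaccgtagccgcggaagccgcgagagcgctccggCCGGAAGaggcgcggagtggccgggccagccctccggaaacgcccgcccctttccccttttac
Bcl2, chr1:106714291-106714540, minus strand: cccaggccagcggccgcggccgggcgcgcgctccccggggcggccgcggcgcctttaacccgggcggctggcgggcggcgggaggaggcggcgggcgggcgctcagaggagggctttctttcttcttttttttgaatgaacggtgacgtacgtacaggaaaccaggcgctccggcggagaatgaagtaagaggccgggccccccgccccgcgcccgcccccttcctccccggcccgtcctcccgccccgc
Bcl2l1, chr2:152831729-152831978, minus strand: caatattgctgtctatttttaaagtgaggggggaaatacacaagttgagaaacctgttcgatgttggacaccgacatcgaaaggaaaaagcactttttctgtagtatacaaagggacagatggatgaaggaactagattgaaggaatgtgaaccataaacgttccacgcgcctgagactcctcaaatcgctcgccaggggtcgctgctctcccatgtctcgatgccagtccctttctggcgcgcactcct
Bmf, chr2:118549687-118549936, minus strand: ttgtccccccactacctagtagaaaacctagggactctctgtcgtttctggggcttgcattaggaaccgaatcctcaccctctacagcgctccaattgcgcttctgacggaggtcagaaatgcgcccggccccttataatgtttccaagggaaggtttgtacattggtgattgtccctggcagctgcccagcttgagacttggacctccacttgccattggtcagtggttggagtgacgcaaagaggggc
The Bcl2l11 window held a GTAAACA match 227 to 221 bases before the start and a CCGGAAG match on the opposite strand 105 to 99 bases before it. The Mcl1 window held a CCGGAAG match 63 to 57 bases before the start. The Bcl2 window held no match to these letters, nor did the windows of Bcl2l1 and Bmf at any of their RefSeq starts, nor the window at the other RefSeq start of Bcl2l11 (base 128127575). Of the members not called, the Bid window held CAGGAAG on the opposite strand, 1 of the 3 Bbc3 windows held GTAAACA on the opposite strand, and the windows of Bax and Bak1 held no match. Among 32851 promoter windows of the same length, 6.91% held CCGGAAG, 10.8% held CAGGAAG and 3.17% held GTAAACA. These matches describe the letters in the windows and are not measurements of binding.

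Libraries held 17274639 to 19410458 counts. Erg (496 ± 238 CPM in controls and 89.3 ± 19.6 CPM in knockouts, SD, n = 3) fell, with a log2 fold change of -2.48 (adjusted p = 0.0137 in edgeR, SE 0.44), while Fli1 had a log2 fold change of -0.32 (adjusted p = 0.181 in edgeR, SE 0.15). The Erg call was lost without control 3 or any 1 of the knockouts (edgeR adjusted p up to 0.0691), and without control 2 both genes were called lower (log2 fold change -2.86 and -0.48, edgeR adjusted p = 2.255e-05 and 0.00346). CPM are counts scaled to a common library size, and counts cover the whole gene, whether or not a deleted exon is present. Control 2 stood apart from the other controls: the summed level of 10 fibroblast markers was 14385 CPM in it, 648 and 1446 CPM in controls 1 and 3 and 2732 to 3932 CPM in knockouts, and that of 12 endothelial markers was 7180 CPM, against 15751 and 15775 CPM and 2593 to 3398 CPM. All 12 endothelial markers were detected, and all 12 were called lower in the knockout. Among them were the genes of the sort markers, Pecam1 for CD31 (mean 2927 to 278 CPM) and Cdh5 for VE-cadherin (3985 to 1270 CPM). The calls of Cdh5, Emcn and Esam were lost without any 1 library other than control 2. Those of Cldn5, Kdr and Robo4 were lost without some single libraries, among them knockouts 1 and 2. Pecam1, Flt1, Tek, Tie1, Vwf and Egfl7 kept their calls whichever library was left out. The sums of 11 pericyte and smooth muscle markers were 4302 CPM in control 2, 477 and 592 CPM in the other controls and 782 to 1576 CPM in knockouts, and those of 9 leukocyte and microglial markers were 167 CPM in control 2 and 4.46 to 15.6 CPM elsewhere. In control 2 the leukocyte sum was nearly all Tmem119 (159.98 CPM). Lyz2 (3.32 CPM) and Csf1r (1.91 CPM) were also highest of all libraries there, at low levels. Cd68 (1.69 CPM) and Aif1 (0.218 CPM) were lowest of the controls in control 2. Ptprc had 3 counts there, P2ry12 had 2 counts, and Cx3cr1 and Itgam had 0 counts. The most abundant genes of these 3 lists were Col1a1 (214, 5489 and 628 CPM in controls 1 to 3), Acta2 (379, 3049 and 462 CPM) and Tmem119, which had 1.79 and 10.3 CPM in controls 1 and 3. In knockouts 1 to 3 Col1a1 had 235, 104 and 110 CPM. Dcn was the largest part of the fibroblast sum there (1421, 2110 and 1343 CPM, against 3.95, 317 and 6.96 CPM in controls). Of the 10 fibroblast markers, 1 was called higher and 0 lower. Without control 2, Dcn, Lum, Pdgfra, Col5a1, Fbln1 and Mmp2 were called higher and Col1a1 lower. Astrocyte, oligodendrocyte, neuron and choroid plexus markers summed to at most 10.6 CPM in any library, with Olig1 and Ttr at 0 counts in every library. The 6 markers of dividing cells all rose, from 132 to 156 CPM in sum in controls to 383 to 464 CPM in knockouts, and the 7 dissociation stress genes summed to 422 to 538 CPM in controls and 789 to 842 CPM in knockouts. Of those 7, Fos and Ier2 were called higher and Atf3 lower (edgeR adjusted p = 0.0178, 0.0146 and 0.0102), and 4 were not called, among them Dusp1, the most abundant. Egr1, Hspa1a and Hspa1b were also called higher without control 2 (log2 fold change 1.90, 1.94 and 1.38), while Dusp1 was not called. The Fos call was lost without control 3 or any 1 of the knockouts. The Ier2 call was lost without any 1 of the knockouts, and the Atf3 call without knockout 2. By the levels of Xist and Ddx3y, controls 1 and 3 and knockout 1 were male and the other 3 libraries female. Neither group was therefore of a single animal, but whether libraries of the same sex and group came from separate animals is not known. The part of these differences in the results on the BCL2 family was not tested beyond the values without control 2 and within each sex given below. In bulk RNA, fewer cells of a type and less RNA per cell cannot be told apart.

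Of the 10 members, 2 rose (Bcl2l1 and Bmf) and 3 fell (Bcl2l11, Bcl2 and Mcl1) in the knockout, and 5 did not pass (edgeR, adjusted p under 0.05). Among all 13901 tested genes, 24.7% were called, 13.1% higher and 11.7% lower. The median log2 fold change was -0.16 over the members and 0.00 over all tested genes. In 8 of 10 members the control and knockout libraries did not overlap in CPM, which held for 46.3% of tested genes (25.0% with the knockouts above and 21.3% below), and for Bak1 the nearest libraries of the groups differed by less than 0.1 CPM. Without control 2, the 5 calls remained in the same direction and Pmaip1, Bak1 and Bax were added on the lower side, giving 2 higher and 6 lower. The background then also rose, to 50.3% of genes called (25.5% higher and 24.8% lower). Leaving out any other library reduced the members called to 1 or 2, and Bcl2l11 was called in each of those fits.

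**Figure D1:**
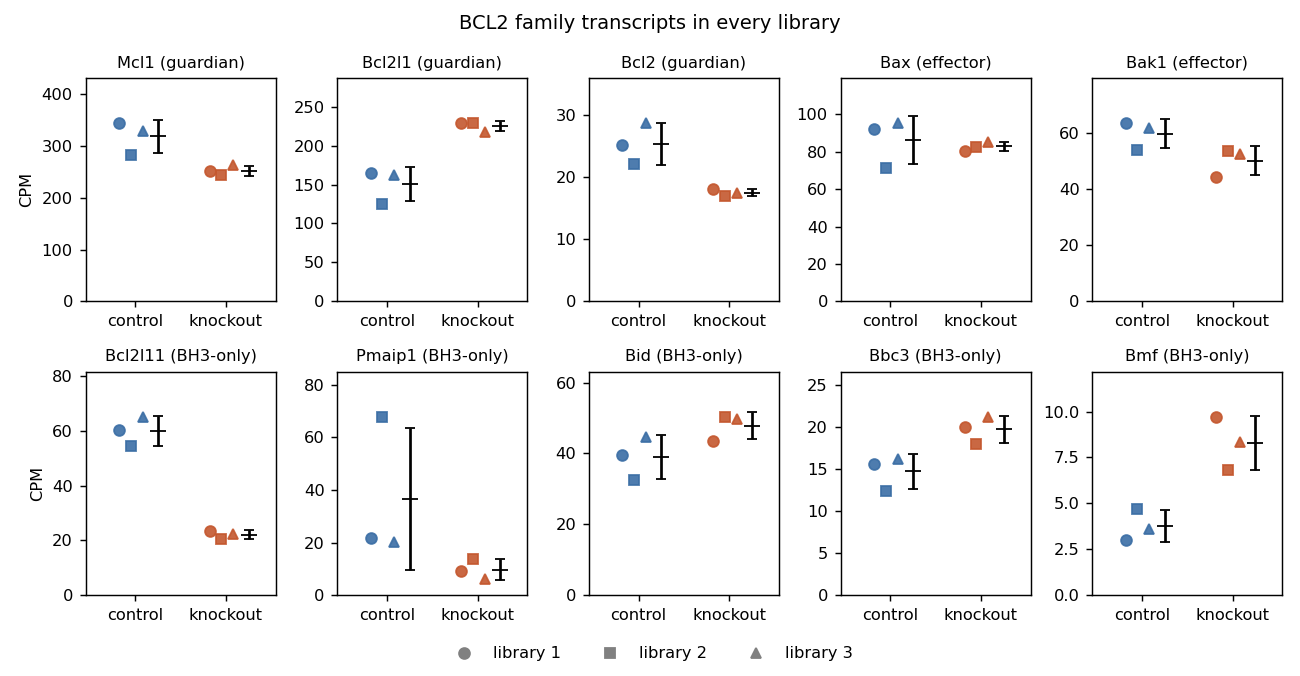
CPM of the 10 BCL2 family genes (vertical axes, linear and starting at 0) in the 3 control (blue) and 3 knockout (orange) libraries, with the marker shape giving the library number and black bars the mean and SD of the 3 libraries. Bcl2l11 lies between 54.3 and 65.1 CPM in controls and between 20.4 and 23.5 CPM in knockouts, and Pmaip1 shows control 2 at 67.8 CPM, far above every other library.

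The 3 guardian genes among the members moved in opposite directions, with Bcl2l1 higher and Mcl1 and Bcl2 lower in the knockout. Bcl2l1 (ENSMUSG00000007659; GRCm38 chromosome 2, 152780668 to 152831728, minus strand), which encodes BCL-XL, had 164, 125 and 162 CPM in controls 1 to 3 and 229, 228 and 218 CPM in knockouts 1 to 3. All 3 knockouts lay above all controls, and the knockouts were close together, whereas control 2 was the lowest library. The means were 150.3 ± 21.9 and 225 ± 6.27 CPM (SD, n = 3) and the log2 fold change 0.58 (adjusted p = 0.0193 in edgeR, SE 0.12). The call was lost without control 3 or any 1 of the knockouts (edgeR adjusted p up to 0.0794). Leaving out control 2 gave a log2 fold change of 0.43 (adjusted p = 4.045e-04 in edgeR, SE 0.05). The log2 ratio of mean CPM was 0.49 among male and 0.84 among female libraries, the female control being control 2, so that sex and this library cannot be told apart. Counts join the long Bcl2l1 transcript, which encodes BCL-XL, with any shorter splice form, so the balance between them was not measured.

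Mcl1 (ENSMUSG00000038612; GRCm38 chromosome 3, 95658788 to 95663176, plus strand), encoding a guardian protein with rapid turnover, had 345, 284 and 329 CPM in controls and 252, 244 and 263 CPM in knockouts. The groups did not overlap, with control 2 the nearest control to the knockouts. The mean fell to 79.2% of the control level, from 319 ± 31.7 to 253 ± 9.63 CPM (SD, n = 3; adjusted p = 0.0476 in edgeR with a log2 fold change of -0.34, SE 0.09). This call is close to the threshold: it was lost without control 1, control 3 or any 1 of the knockouts (edgeR adjusted p up to 0.166) and with scaling by library size only (log2 fold change -0.25, edgeR adjusted p = 0.107), without a filter on low counts (edgeR adjusted p = 0.101) or with sex as a term (edgeR adjusted p = 0.0923). The log2 fold change became -0.45 without control 2 (adjusted p = 7.963e-04 in edgeR, SE 0.06), and within sex the log2 ratio was -0.42 in male and -0.16 in female libraries.

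Bcl2 itself (ENSMUSG00000057329; GRCm38 chromosome 1, 106538178 to 106714274, minus strand) had lower levels, at 25.2, 22.0 and 28.7 CPM in controls and 18.0, 16.9 and 17.5 CPM in knockouts. The knockouts lay below every control with little spread among them. Its mean fell (25.3 ± 3.33 to 17.4 ± 0.569 CPM, SD, n = 3; adjusted p = 0.0230 in edgeR with a log2 fold change of -0.54, SE 0.11). The edgeR adjusted p was 0.00114 without control 2 (log2 fold change -0.66) and up to 0.0959 without any 1 of the other libraries, each of which ended the call. Within sex the log2 ratio was -0.58 in male and -0.36 in female libraries. An annotated gene on the opposite strand covers 6.09% of the Bcl2 exon bases, and that gene was listed at 0 counts in all libraries.

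Per kilobase of exon, Bcl2l1 made up more and Mcl1 less of the summed transcripts of these 3 guardian genes in every knockout than in any control. The sums in knockouts lay within the range of the controls. These shares are a description, with no test. Mcl1 made up 72.3%, 73.7% and 71.5% of the summed CPM per kb in controls 1 to 3 and 58.7%, 58.0% and 60.9% in knockouts 1 to 3. Bcl2l1 held 25.4% ± 1.03 of the sum in controls and 39.3% ± 1.51 in knockouts (SD, n = 3), and Bcl2 held 2.14% ± 0.177 and 1.52% ± 0.0355. The sum of the 3 genes was 129 ± 14.3 CPM per kb in controls and 125 ± 1.77 CPM per kb in knockouts. As shares within a library these values do not depend on how libraries were scaled, but they depend on the length given to each gene. With the longest annotated transcript as the length in place of all exons, Bcl2l1 held 37.6% in controls and 53.4% in knockouts, so that which guardian gene was the more abundant in knockouts depended on the length, while its larger share in knockouts did not.

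**Figure D2:**
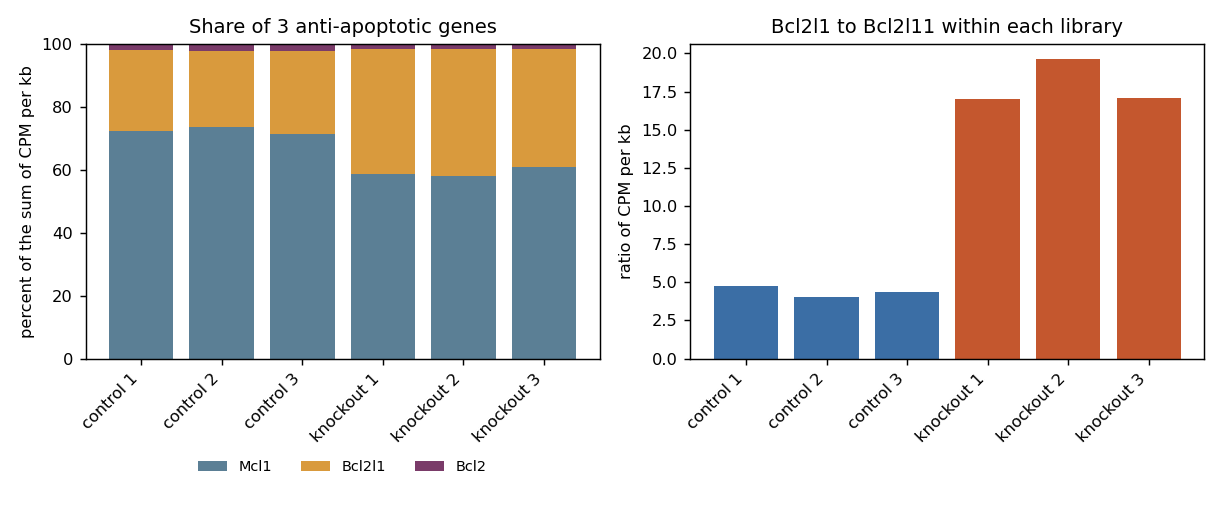
Left, the percent of the summed CPM per kb of exon held by Mcl1, Bcl2l1 and Bcl2 in each library; right, the ratio of Bcl2l1 to Bcl2l11 in CPM per kb of exon in each library (bars for controls blue and for knockouts orange, both axes starting at 0). The Bcl2l1 share is 24.2% to 26.2% in controls and 37.6% to 40.5% in knockouts, and the ratio is 4.03 to 4.76 in controls and 17.04 to 19.6 in knockouts.

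Neither effector gene passed the test with all 6 libraries, and both passed as lower without control 2. Bax (ENSMUSG00000003873; GRCm38 chromosome 7, 45461697 to 45466898, minus strand) had 92.0, 71.6 and 95.4 CPM in controls and 80.6, 82.7 and 85.2 CPM in knockouts, so that the knockouts lay between control 2 and the other controls. Its log2 fold change was -0.06, with a 95% interval of -0.35 to 0.23 (edgeR adjusted p = 0.740). Without control 2 it was -0.21 (adjusted p = 0.00890 in edgeR, SE 0.05), which passed the test. Within sex the log2 ratio was -0.22 in male and 0.23 in female libraries. The sign under all libraries also turned with scaling by library size only (0.03), with sex as a term (0.01) and without control 3 (0.00). Exons of Gm45808 on the same strand cover 12.2% of the Bax exon bases, and Gm45808 had 0 counts in all libraries. A part of the Bax counts is therefore uncertain.

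Bak1 (ENSMUSG00000057789; GRCm38 chromosome 17, 27019810 to 27029009, minus strand) had 63.5, 53.7 and 61.9 CPM in controls and 44.1, 53.7 and 52.5 CPM in knockouts. Control 2 and knockout 2 were at the same level to 3 digits. The log2 fold change was -0.25 with a 95% interval of -0.52 to 0.01 (edgeR adjusted p = 0.143), and without control 2 it was -0.36 (adjusted p = 0.0138 in edgeR, SE 0.09), a call. In male libraries the log2 ratio was -0.51 and in female libraries -0.02. Exons of Ggnbp1 on the opposite strand cover 25.5% of the Bak1 exon bases, and Ggnbp1 had 2.45 to 4.16 CPM. The counting is not stated to use strand, so a part of the Bak1 counts is uncertain.

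Bcl2l11, encoding BIM, showed the clearest change of the family. This gene (ENSMUSG00000027381; GRCm38 chromosome 2, 128126038 to 128162547, plus strand) had 60.4, 54.3 and 65.1 CPM in controls and 23.5, 20.4 and 22.3 CPM in knockouts. Each knockout was below each control by more than the range within either group. The mean fell from 59.9 ± 5.42 to 22.1 ± 1.6003 CPM (SD, n = 3), to 36.8% of the control level (adjusted p = 0.00131 in edgeR with a log2 fold change of -1.44, SE 0.10). It is the only member that was called under all 14 alternatives tried, with log2 fold changes of -1.54 to -1.35 and adjusted p up to 0.0120. Its value without control 2 was -1.54 (adjusted p = 1.591e-05 in edgeR, SE 0.08), and the log2 ratio was -1.41 in male and -1.35 in female libraries. The promoter window shown above held a match to both kinds of motif, and the window at its other RefSeq start held none.

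Set beside the guardian that rose, the transcripts of Bcl2l1 outnumbered those of Bcl2l11 per kilobase 4.76, 4.03 and 4.35 times in controls and 17.04, 19.6 and 17.1 times in knockouts. The mean ratio was 4.38 ± 0.365 in controls and 17.9 ± 1.49 in knockouts (SD, n = 3). This pair was chosen after the values were seen and is given as a description. Another length for either gene multiplies all 6 ratios alike.

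Bmf, encoding a BH3-only protein known for its link to the cytoskeleton and to detachment, moved the other way from a low level. The gene (ENSMUSG00000040093; GRCm38 chromosome 2, 118528757 to 118549687, minus strand) had 3.00, 4.68 and 3.62 CPM in controls and 9.71, 6.81 and 8.35 CPM in knockouts. All knockouts were above all controls, and the lowest library held 57 counts, which gives a counting error of 13.2%, the largest among the members. The mean rose 2.20-fold from 3.77 ± 0.850 to 8.29 ± 1.45 CPM (SD, n = 3; adjusted p = 0.0197 in edgeR with a log2 fold change of 1.14, SE 0.23). The value without control 2 was 1.29 (edgeR adjusted p = 0.00172), and without control 1, control 3, knockout 1 or knockout 3 the call was lost (edgeR adjusted p up to 0.0772). The log2 ratio was 1.55 in male and 0.69 in female libraries. Per kilobase, Bcl2l11 exceeded Bmf 10.8 ± 2.90 times in controls and 1.76 ± 0.186 times in knockouts (SD, n = 3). Controls 1 to 3 gave 13.2, 7.58 and 11.8 times. This pair was not set in advance and joins a gene called lower with a gene called higher, so the ratio is a description only.

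Pmaip1, encoding NOXA, a BH3-only protein that binds MCL1, had the lowest log2 fold change of the members but did not pass the test with all libraries. This gene (ENSMUSG00000024521; GRCm38 chromosome 18, 66458533 to 66465565, plus strand) had 21.7, 67.8 and 20.1 CPM in controls and 9.35, 13.8 and 5.96 CPM in knockouts. Every knockout was below every control, and control 2 stood far above the other controls, being the library that also had the highest summed fibroblast and pericyte markers. With means of 36.5 ± 27.1 and 9.72 ± 3.95 CPM (SD, n = 3), the log2 fold change was -1.91 (adjusted p = 0.0660 in edgeR, SE 0.59). Without control 2 it was smaller, at -1.14, but more precise (adjusted p = 0.0159 in edgeR, SE 0.29). DESeq2 called it with all 6 libraries (log2 fold change -1.93, DESeq2 adjusted p = 0.00263), as did edgeR with a block on the replicate number (-1.76, edgeR adjusted p = 0.0293). The log2 ratio was -1.16 in male and -2.78 in female libraries.

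Bbc3, encoding PUMA, a BH3-only protein known as a target of p53, had 15.6, 12.4 and 16.2 CPM in controls and 20.0, 18.0 and 21.2 CPM in knockouts. The gene (ENSMUSG00000002083; GRCm38 chromosome 7, 16308393 to 16318205, plus strand) was higher in every knockout than in any control. Its log2 fold change of 0.42, with a 95% interval of 0.09 to 0.75, did not pass after adjustment over all genes (edgeR adjusted p = 0.0723), nor did the value of 0.28 without control 2 (edgeR adjusted p = 0.0671). It passed with scaling by library size only (log2 fold change 0.51, edgeR adjusted p = 0.0400). The log2 ratio was 0.33 in male and 0.66 in female libraries.

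Bid, which caspase-8 cleaves to join death receptors to the mitochondrial pathway, had 39.5, 32.4 and 44.7 CPM in controls and 43.4, 50.3 and 49.8 CPM in knockouts. The groups overlapped, with knockout 1 below control 3. The log2 fold change of this gene (ENSMUSG00000004446; GRCm38 chromosome 6, 120891930 to 120916853, minus strand) was 0.30 with a 95% interval of -0.04 to 0.64 (edgeR adjusted p = 0.166), and 0.15 without control 2 (edgeR adjusted p = 0.207). Male libraries gave a log2 ratio of 0.04 and female libraries 0.63. Exons of Bcl2l13 on the opposite strand cover 17.7% of the Bid exon bases. Bcl2l13 stood at 52.5 ± 6.01 CPM in controls against 56.1 ± 1.09 CPM in knockouts (SD, n = 3), and as strand use in counting is not stated, a part of the Bid counts is uncertain.

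**Figure D3:**
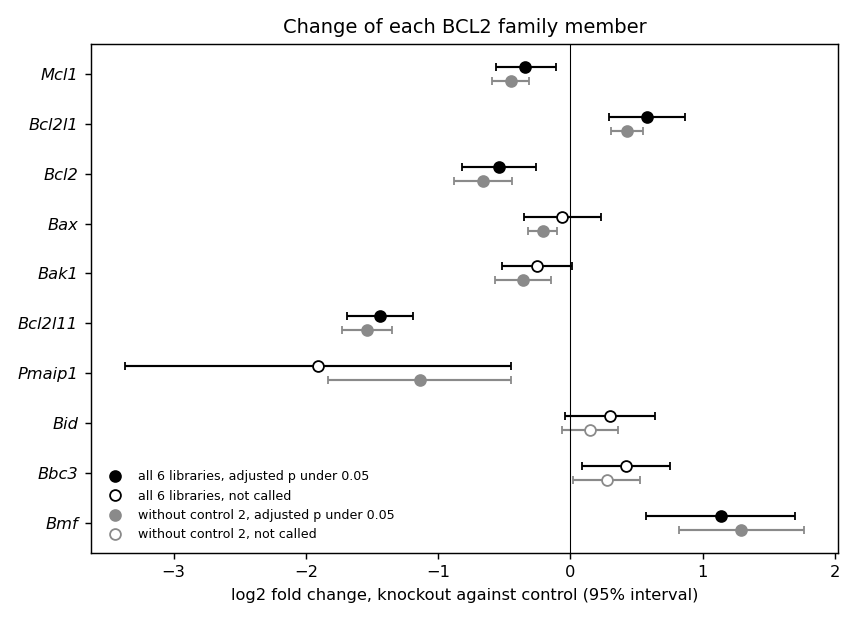
Log2 fold change of each member in the knockout against the control, with its 95% interval, from the fit of all 6 libraries (black) and of the 5 without control 2 (grey), filled where the edgeR adjusted p is under 0.05. Bcl2l11, Mcl1 and Bcl2 lie left of 0 and Bcl2l1 and Bmf right of 0 in both fits, and the widest interval is that of Pmaip1 with all libraries (-3.37 to -0.45).

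Ordered by level per kilobase of exon, Mcl1 was the highest member in controls (93.3 ± 9.28 CPM per kb, SD, n = 3), followed by Bax (54.8 ± 8.18), Bcl2l1 (32.8 ± 4.78) and Bak1 (24.8 ± 2.18). Below them came Pmaip1 (13.4 ± 9.93), then Bid (10.95 ± 1.74), Bcl2l11 (7.46 ± 0.676), Bbc3 (6.93 ± 0.976), Bcl2 (2.76 ± 0.364) and Bmf (0.717 ± 0.162). The range of Pmaip1 overlapped those of Bak1, Bid, Bcl2l11 and Bbc3. Its place rested on control 2 (24.8 CPM per kb). In controls 1 and 3 Pmaip1 (7.95 and 7.34 CPM per kb) lay below Bid (11.1 and 12.6 CPM per kb). The libraries of Bcl2l11 and Bbc3 also overlapped. In knockouts the first 4 places were the same, with Bcl2l1 (49.1 ± 1.37 CPM per kb) now next to Bax (52.6 ± 1.44) without overlap. Bid (13.5 ± 1.09) and Bbc3 (9.29 ± 0.774) stood above Pmaip1 (3.56 ± 1.45) and Bcl2l11 (2.75 ± 0.199), which overlapped. Bcl2 (1.90 ± 0.0621) and Bmf (1.58 ± 0.277) were last and overlapped. With the longest transcript as length, Bcl2l1 ranked 1, Bax 2 and Mcl1 3 in knockouts.

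The genes around these members were read from 6 lists, of which each was set against the share of 24.7% of all genes called. Counts without control 2 are to be read against the share in that fit, 50.3% of all genes (25.5% higher and 24.8% lower). No test of enrichment was run on any list. Of the other BCL2 family genes, 9 of 15 were tested; 1 rose, and 0 fell with edgeR, at an unadjusted p under 0.05, with DESeq2 or with limma voom. The gene that rose was Bnip3, encoding an atypical BH3 protein of hypoxia and mitophagy, with 28.5, 40.6 and 29.5 CPM in controls and 63.5, 57.0 and 58.1 CPM in knockouts (adjusted p = 0.0136 in edgeR with a log2 fold change of 0.86, SE 0.15). A gene on the opposite strand covers 22.3% of the Bnip3 exon bases, and the call was lost without any 1 of the knockouts. The list median was 0.10, and without control 2 there were 3 higher and 2 lower. Among those not called with all libraries was the guardian gene Bcl2l2 (log2 fold change 0.23, edgeR adjusted p = 0.249), named after its values were seen. Without control 2 Bcl2l2 was called higher (0.36, edgeR adjusted p = 9.928e-04). The guardian genes Bcl2a1a, Bcl2a1b and Bcl2l10 had 0 counts in all libraries and were not tested; Bcl2a1a and Bcl2a1b are near-identical copies, so their counts are uncertain.

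Downstream of the mitochondria, 4 of 17 genes of the apoptosome, caspase and inhibitor-of-apoptosis list rose. With edgeR 0 fell, as with DESeq2 and limma voom, against 3 lower at an unadjusted p under 0.05, and the list median was -0.05. The risers of largest size were Birc3 and Birc2, neighbouring genes on chromosome 9 that encode cIAP2 and cIAP1, ubiquitin ligases of TNF receptor signalling. Birc3 had 26.2, 27.6 and 28.3 CPM in controls and 68.8, 77.1 and 73.3 CPM in knockouts (adjusted p = 6.232e-04 in edgeR with a log2 fold change of 1.42, SE 0.07). Birc2 had 33.5, 32.2 and 34.4 CPM in controls and 73.5, 85.5 and 76.2 CPM in knockouts (adjusted p = 0.00117 in edgeR with a log2 fold change of 1.23, SE 0.08). For both, control 2 was at the level of the other controls and no library left out ended the call. The others, named after their values were seen, were Diablo, which encodes the IAP antagonist SMAC, and Aifm1, both lost when any 1 library other than control 2 was left out. Without control 2 the list held 4 higher and 4 lower.

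In the death receptor list 2 of 12 tested genes rose and 2 fell, with a median of 0.12. Tnfsf10, encoding the death ligand TRAIL, fell from 17.6 ± 9.03 to 3.82 ± 1.73 CPM (SD, n = 3; adjusted p = 0.0364 in edgeR with a log2 fold change of -2.20, SE 0.55), with control 2 at 7.35 CPM against 24.4 and 20.9 CPM. Tnfrsf1a, a TNF receptor gene, rose from 193 ± 23.8 to 283 ± 11.1 CPM (adjusted p = 0.0154 in edgeR with a log2 fold change of 0.56, SE 0.10). Traf2 also rose and Ripk1 also fell, both named after their values were seen. The receptor gene Fas, likewise singled out after its values were seen, had 2.00, 20.2 and 1.21 CPM in controls and 73.1, 64.0 and 63.5 CPM in knockouts. Its log2 fold change of 3.10 did not pass with all libraries (adjusted p = 0.0866 in edgeR, SE 1.06), and without control 2 it was 5.34 (edgeR adjusted p = 4.378e-06). All 4 calls of this list were lost when control 3 or any 1 of the knockouts was left out, and without control 2 there were 4 higher and 5 lower.

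Among 21 genes of p53 and its targets, which leave out the members Bbc3, Pmaip1 and Bax, 2 rose and 2 fell, with a median of 0.00. Gdf15, encoding a secreted stress cytokine, rose from 7.01 ± 4.85 to 49.4 ± 5.02 CPM (SD, n = 3; adjusted p = 0.0265 in edgeR with a log2 fold change of 2.82, SE 0.63). Btg2, an anti-proliferative gene, rose from 104 ± 6.32 to 168 ± 7.65 CPM (adjusted p = 0.00302 in edgeR with a log2 fold change of 0.69, SE 0.07). Cdkn1a, encoding the cell cycle inhibitor p21, and Rrm2b fell (log2 fold change -0.29 and -0.38, edgeR adjusted p = 0.0302 and 0.0257), both named after their values were seen. Trp53 itself was at 154 CPM in controls against 159.5 CPM in knockouts (edgeR adjusted p = 0.728). Without control 2, 7 genes of the list were higher and 7 lower. The calls of Gdf15, Cdkn1a and Rrm2b were lost without any 1 of the libraries other than control 2. Their edgeR adjusted p rose up to 0.0865, 0.126 and 0.101, while Btg2 kept its call whichever library was left out.

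Regulators of BCL2 family genes and proteins were called in 10 of 21 tested cases, 4 higher and 6 lower (47.6%), with a median of -0.11. Trib3, a pseudokinase gene of the stress response, fell from 43.6 ± 13.3 to 12.3 ± 1.44 CPM (SD, n = 3; adjusted p = 0.00722 in edgeR with a log2 fold change of -1.82, SE 0.26). Pim3, encoding a kinase that promotes survival, fell from 88.5 ± 32.1 to 34.9 ± 3.10 CPM (adjusted p = 0.0252 in edgeR with a log2 fold change of -1.34, SE 0.29), and lost its call without any 1 of the libraries other than control 2. The other genes that fell were Pim1 (log2 fold change -1.19), Fbxw7 (-0.35), Bag1 (-0.30) and Akt1 (-0.29), and those that rose were E2f1 (0.87), Foxo3 (0.58), March5 (0.48) and Foxo4 (0.30), all named after their values were seen. Of these 8, only Foxo3 and March5 kept their calls whichever library was left out, and Foxo4 alone lost its call without control 2 (edgeR adjusted p = 0.0581). Foxo3, a forkhead factor known to activate Bcl2l11, had 66.7, 77.3 and 67.3 CPM in controls and 105, 98.0 and 114 CPM in knockouts (adjusted p = 0.00861 in edgeR with a log2 fold change of 0.58, SE 0.09), while Foxo1 had 166 ± 54.1 and 89.3 ± 5.27 CPM (edgeR adjusted p = 0.0529, and 1.626e-05 without control 2). March5, encoding a mitochondrial ubiquitin ligase, had 69.3 ± 3.99 and 96.4 ± 3.16 CPM (edgeR adjusted p = 0.00620). Without control 2, 4 genes were higher and 10 lower.

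Genes of the mitochondrial outer membrane and pore changed in 4 of 14 cases, 2 higher and 2 lower, with a median of -0.03. Vdac2, encoding a channel known to hold BAK at the mitochondrial membrane, rose from 246 ± 5.21 to 371 ± 15.5 CPM (SD, n = 3; adjusted p = 0.00360 in edgeR with a log2 fold change of 0.59, SE 0.06), with control 2 (252 CPM) close to the other controls (243.0 and 243.5 CPM). Hk1, a hexokinase gene, fell from 333 ± 35.6 to 222 ± 10.96 CPM (adjusted p = 0.0119 in edgeR with a log2 fold change of -0.58, SE 0.10), a call lost without control 1, control 3, knockout 1 or knockout 2. Slc25a5 rose and Mfn2 fell, named after their values were seen. The Slc25a5 call was lost without any 1 library other than control 2 (edgeR adjusted p up to 0.13). The Mfn2 call was lost without knockout 1 (edgeR adjusted p = 0.0512). Without control 2 the list had 3 higher and 4 lower.

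**Figure D4:**
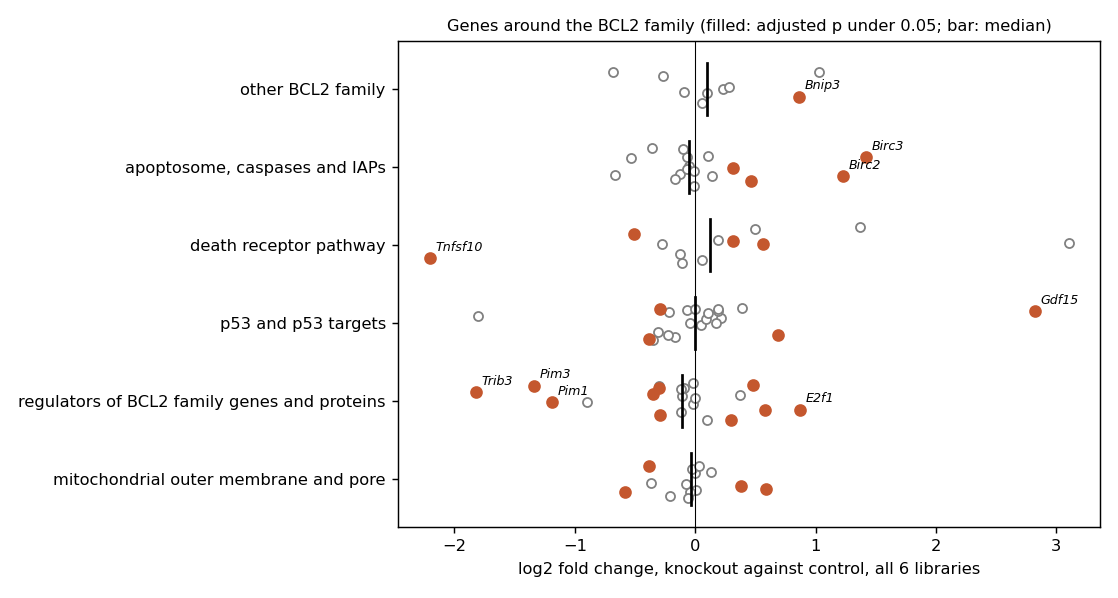
Log2 fold changes (horizontal axis, knockout against control, all 6 libraries) of the tested genes in the 6 lists around the BCL2 family, filled where the edgeR adjusted p is under 0.05, with a bar at each list's median; points are spread vertically for legibility. Medians lie between -0.11 and 0.12, and the largest called changes are those of Gdf15 (2.82) and Tnfsf10 (-2.20).

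Likeness of pattern was measured as Pearson's r of log2 CPM over the 6 libraries, among the 10541 tested genes that averaged 5 CPM or more, for the 3 called members with the lowest p. The points share libraries and groups, so r also follows the difference between the groups, and no p is given. Bcl2l11 was most like Emp1 (r = 0.9995; 651 ± 79.3 CPM in controls and 157 ± 13.7 CPM in knockouts, SD, n = 3), L3mbtl3 (0.9986) and Snx5 (0.9984), all lower in the knockout. Bcl2l1 was most like Mzt1 (0.9991), Bcam (0.9987; 76.0 ± 20.1 and 152 ± 10.4 CPM) and Abca9 (0.9978), each with control 2 as its lowest library. Bmf was most like Ap1ar (0.9949), Cactin (0.9939) and Ercc6l2 (0.9932), each with control 2 as the highest control.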

How the data were processed

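Polyadenylated RNA of 6 sorted endothelial libraries was sequenced with TruSeq RNA v2 or Stranded mRNA kits, per the labels' protocols, which do not say which kit served which library. The authors deposited whole-number counts per Ensembl gene, used as deposited. FastQC 0.11.5 and STAR 2.7.6a with build GRCm38 are named per the submitters' processing notes; the counting program is not given in the sources used here, nor is the use of strand or the annotation. Of 52636 identifiers, 52403 matched a symbol (GENCODE M21); 233 did not and held at most 0.0446% of a library. Groups and replicate numbers came from sample titles.

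Counts were compared in R 4.3.3 with edgeR 4.0.16: filterByExpr by group (13901 genes kept), TMM scaling, quasi-likelihood F tests without covariates, two-sided, Benjamini-Hochberg adjustment over all tested genes, called at an adjusted p under 0.05. Library totals of 17274639 to 19410458 counts gave members 57 to 6542 counts and counting errors of 1.24% to 13.2% per library, which cover counting error only. The standard error is the log2 fold change divided by the square root of F, and 95% intervals use its t quantile. Levels are CPM on TMM-scaled library sizes; levels between genes are per kilobase of the union of annotated exons. No 2 libraries agreed within sampling noise (chi-square per degree of freedom at least 6.25).

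The members, the 6 pathway lists and the 10 marker lists were chosen with earlier results of these data known. Named beside the members were Erg, Fli1 and, per pathway list, the 2 called genes of largest absolute change averaging 5 CPM or more, and the most abundant gene of marker lists of other cells. Alternatives were DESeq2 1.42.0, limma voom (limma 3.58.1), RLE scaling, scaling to library size only, no filter on low counts, a filter at 1 CPM in at least 3 libraries, a block on the replicate number, sex as a term, and each library left out in turn. On simulated counts for the comparison of knockout and control (13901 genes), 100 genes were set to change 2-fold and 100 others 4-fold, all averaging 5 CPM or more. The edgeR test found 39% of the former and 87% of the latter. A far larger share of genes was called in the data, so these percentages do not give the power of this comparison.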

Additional observations from a re-analysis of the deposited data

How the results depend on the processing

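Bcl2l11 kept its call under all 14 alternatives, and 9 of 10 members kept their sign, Bax being the exception (0.03 with library size only, 0.01 with sex as a term, 0.00 without control 3, against -0.21 without control 2; edgeR adjusted p = 0.864, 0.977, 0.994 and 0.00890). The members called numbered 2 higher and 3 lower. The replicate block gave 0 higher and 2 lower (Bcl2l11 and Pmaip1). Leaving out 1 library gave 0 to 2 higher and 1 to 6 lower, the 6 being without control 2. The deviations of same-numbered libraries from their group means correlated at -0.174, 0.161 and 0.254, and control 1 correlated best with knockout 3 (0.322). Deviations around a mean of 3 libraries depend on one another, so these values cannot decide whether same-numbered libraries pair. Whether the calls lost under the block mark weaker effects was not tested. Over all genes the replicate block gave 1038 higher and 806 lower, library size only 2501 higher and 1268 lower, and leaving out 1 library 803 to 3617 higher and 548 to 3511 lower, the largest counts being without control 2. With 1 library left out, the other BCL2 family list gave 0 to 3 higher and 0 to 2 lower, the apoptosome list 2 to 4 and 0 to 4, the death receptor list 0 to 4 and 0 to 5, the p53 list 1 to 7 and 0 to 7, the regulators 2 to 4 and 1 to 10, and the mitochondrial list 1 to 3 and 0 to 4. Under the replicate block the apoptosome list had 2 higher, the death receptor list 1 higher and 0 lower, the p53 list 0 lower, the regulators 2 lower, and the mitochondrial list 1 higher and 1 lower. With sex as a term these were 2 higher (apoptosome), 1 higher and 0 lower (death receptor), 0 lower (p53), 3 lower (regulators) and 1 higher (mitochondrial). No filter gave 1 higher and 1 lower for death receptor genes and 0 lower for p53 genes, limma voom gave 1 lower for death receptor genes, and DESeq2 gave 5 lower for p53 genes. Library size only gave 1 lower (death receptor) and 4 higher and 1 lower (p53). The causes were not tested. The longest transcript as length gave shares of 37.6% and 53.4% for Bcl2l1, 60.1% and 45.1% for Mcl1 and, in knockouts, 1.48% for Bcl2. The marker genes Acta2 and Dusp1 turned sign without control 2 (0.83 and -0.08), in ranges of -1.19 to 0.83 and -0.08 to 0.23 with 1 library left out. Without control 2 the markers Col3a1 (-1.70 to 0.61), Fbln1 (-0.87 to 1.16), Notch3 (-2.04 to 0.97), Cspg4 (-1.07 to 0.49) and Lyz2 (-0.94 to 0.04) turned sign as well. Depth limits Bmf most.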
